A study of Rattus norvegicus with 10 samples.

Results

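The genes of respiratory complex I were described in the arcuate nucleus (ARC) of the hypothalamus of Wistar rat dams at parturition. They were chosen by symbol. Every gene of the deposited table whose name begins with Nduf was taken, which gave 44 of 12828 genes, and all 44 were protein-coding. Among them, 36 carry the names of subunits and 8 carry the prefix Ndufaf, which marks assembly factors. The symbols *Ndufs6*, *Ndufa1* and *Ndufb1*, which also belong to the enzyme, were not analysed here because no row had those names.

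The 10 dams formed 2 groups of 5. The 5X-FA dams ate a purified diet with 5 times the recommended amount of folic acid, and the 5X-MTHF dams ate the same diet with an equimolar amount of 5-methyltetrahydrofolic acid, the reduced folate that circulates in blood. Both diets were given in pregnancy only, so no group in these data had the recommended amount of folate. The ARC was cut free hand from frozen coronal slices, and poly-A selected RNA was sequenced. The value used is the average log2 CPM (log2 of read counts scaled to a common library size) of each gene over all libraries, as deposited by the authors, and it is one value for both diets together. The columns of values per library carried names that match no dam and were left unused. A spread over libraries would not need such a match, but it was not computed. No level per dam, no spread between dams, no depth per library and no comparison of the diets is therefore given here. The levels below therefore carry no error.

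Complex I (NADH:ubiquinone oxidoreductase) is the entry point for electrons from NADH into the mitochondrial respiratory chain, and it couples electron transfer to the pumping of protons across the inner membrane. It has the shape of an L. The N module at the tip of the matrix arm oxidises NADH, the Q module below it reduces ubiquinone, and the proximal and distal parts of the membrane arm hold the proton pumps. A small conserved core carries out the chemistry, while supernumerary subunits surround it, and assembly factors guide its construction without being part of the finished enzyme. The core is built from nuclear and mitochondrial genes. Neurons rely heavily on this enzyme because firing and synaptic transmission consume much ATP.

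The promoters of these genes are described first, because some of them hold short sequence words close to their start sites. The search and the spelling of its 8 words were not part of the plan for the work. RefSeq promoters on the GRCr8 assembly, each of 300 bases (250 before and 50 after the annotated start), were matched by symbol for 40 of the 44 members. *Ndufa8*, *Ndufaf6* and *Ndufb9* were among those with no entry. Of 8 words searched on both strands, the word of nuclear respiratory factor 1 (NRF1, an activator of many nuclear genes for mitochondrial proteins) was spelled GCGCANGCG. It was present in 10 of 40 member promoters (25%), in 12.7% of 10623 promoters of genes in the table and in 5.80% of all 33469 RefSeq promoters. The 6 windows shown here include assembly factors and the subunit with the lowest level, and the capitals mark the word or its reverse complement, 5′ to 3′ on the strand of the gene.
*Ndufaf4* chr5:43401627-43401655 (plus strand): gcagtagtccGCGCATGCGcccctgtgga
*Ndufaf5* chr3:147961587-147961615 (plus strand): agtccctttgGCGCATGCGcacaatagaa
*Ndufa5* chr4:53971249-53971277 (minus strand): cgtatgagctGCGCAGGCGcaaatctctc
*Ndufs5* chr5:141264513-141264541 (minus strand): gccgctggctGCGCAGGCGcaaaccgctc
*Ndufa12* chr7:30658195-30658223 (plus strand): tccagctctgCGCGTGCGCagagcgacct
*Ndufa6* chr7:115750320-115750348 (minus strand): tgtaacgctaCGCGTGCGCgcgctgagag

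The 16 NRF1 matches fell at 11 separate places in 10 promoters, with overlapping matches counted together. The word is nearly its own reverse complement and matched on both strands at the same place in *Ndufaf4*, *Ndufaf5* and *Ndufa11*. The places ran from 158 bases before the start (*Ndufaf4*) to 11 bases after it. Only in *Ndufb10* and *Ndufb4* did a match lie after the start, and *Ndufb4* held another one at bases -111 to -103. In *Ndufa11* the word was repeated, with 4 matches between bases -97 and -82. The other members with a match were *Ndufa5*, *Ndufs5*, *Ndufa12*, *Ndufa6*, *Ndufaf5* and *Ndufv3*. No core subunit with a promoter entry held this word.

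The word of YY1, a zinc finger protein that binds near the starts of many housekeeping genes, was spelled AANATGGCG. It was present in 11 of 40 member promoters (27.5%), in 5.99% of the promoters of genes in the table and in 3.01% of all promoters. These 8 windows cover the matrix arm, both parts of the membrane arm and an assembly factor, and the capitals mark the word or its reverse complement.
*Ndufs1* chr9:72073617-72073645 (minus strand): tagccgtggcCGCCATATTgacttagcgg
*Ndufs7* chr7:10110476-10110504 (minus strand): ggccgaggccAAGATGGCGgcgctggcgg
*Ndufs4* chr2:47794892-47794920 (minus strand): tgcccacaggAAGATGGCGgcggtctcaa
*Ndufa6* chr7:115750284-115750312 (minus strand): cttccttagcAAGATGGCGgccgcggcca
*Ndufa9* chr4:161374142-161374170 (minus strand): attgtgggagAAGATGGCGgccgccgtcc
*Ndufc1* chr2:137601712-137601740 (minus strand): cctgaagcgcAACATGGCGccgcccgtag
*Ndufb8* chr1:253362897-253362925 (minus strand): ggagaaggtgAAGATGGCGgcgtcccggg
*Ndufaf8* chr10:105879900-105879928 (plus strand): ggcagggcccAAGATGGCGgcgcccacaa

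The YY1 matches lay close together. Their first bases ran from -47 to 27 with a median of 6 bases after the annotated start, 10 of the 11 were on the strand of the gene, and 9 of the 11 were on that strand and after the start (81.8%). Among the promoters of all genes in the table, 289 of 659 YY1 matches were on the strand of the gene and after the start (43.9%). *Ndufa13* (first base at -47) and *Ndufs1* (first base at -30, opposite strand) were the exceptions. In 10 of the 11 windows the capitals end in ATGGCG on the strand of the gene, letters that also spell a start codon followed by an alanine codon, and whether translation starts there was not examined. The words of both factors occurred together in 1 promoter, that of *Ndufa6*, where the NRF1 word began at -21 and the YY1 word at 16.

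**Figure D1:**
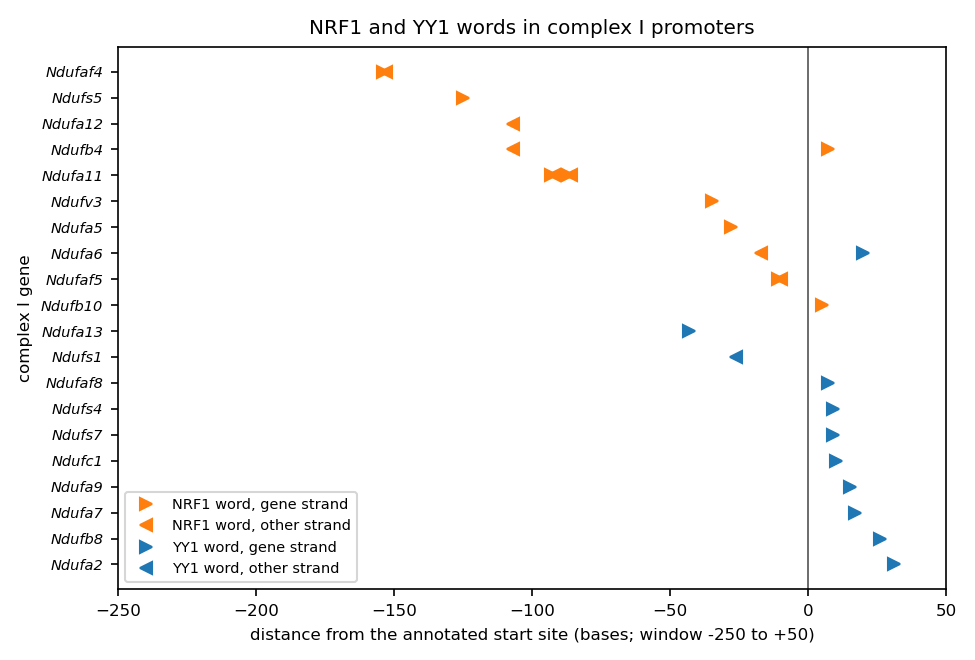
Positions of the NRF1 word (orange) and the YY1 word (blue) in the promoters of complex I genes, in bases from the annotated start (vertical line). Each triangle is 1 match, placed at its middle and pointing right when it is on the strand of the gene and left when it is on the other. The NRF1 words are spread between 158 bases before the start and 11 bases after it, while 9 of the 11 YY1 words sit just after the start.

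The other words were at shares nearer to or below those of the table. The GC box of SP1 (GGGCGG), a general activator of GC-rich promoters, was in 18 of 40 member promoters (45%) against 61.7% of the promoters of genes in the table. The ETS word (CCGGAAG), bound by the GABP factor among others, was in 8 (20%) against 16.2%. The CCAAT box was in 13 (32.5%) against 37.0%, and the TATA box (TATAAA) was in 2 (5%) against 6.72%. The cyclic AMP word (TGACGTCA) was in 2 (5%), *Ndufb2* and *Ndufa10*, against 3.01%, and in both it began at base -29. The word of the estrogen-related receptors (TCAAGGTCA) was in 0 of 40 against 0.292%, which says only that these letters are not in these windows. The median GC content of the member promoters was 57.2% against 61.0% for the table, from 43.3% in *Ndufs4* to 72.7% in *Ndufv2*. Members with the NRF1 word had a median level of 5.56 log2 CPM (n = 10) and members without it 5.79 (n = 30), and the medians with and without the YY1 word were 5.75 (n = 11) and 5.64 (n = 29). These shares and medians are descriptions without a test, and a match is not a bound site.

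In reads, the nuclear subunits were mostly above the median of all genes. The assembly factors had a lower median than the subunits, and the levels of both sets overlapped. Without *Ndufa4* and *Ndufa4l2*, described further on, the 34 nuclear subunits had a median level of 6.04 log2 CPM, with 72.5% of all genes in the table below it, and ran from 4.05 (*Ndufa12*) to 8.05 (*Ndufs1*). The table as a whole had a median of 4.94 and quartiles of 3.65 and 6.18. Of the 34 subunits, 33 were above the median of all genes and 13 were above the upper quartile. Within 1 log2 unit of their own median lay 28 of them, and the matching share over all genes was not computed. The 8 assembly factors had a median of 4.59, 3 of them were above the median of all genes and 0 were above the upper quartile. A long transcript yields more reads than a short one at equal copy number, and transcript lengths were not at hand for the nuclear genes. The order of genes given here is therefore an order of reads, not of molecules. In a piece of mixed tissue, fewer cells of a type and less RNA per cell cannot be told apart either.

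**Figure D2:**
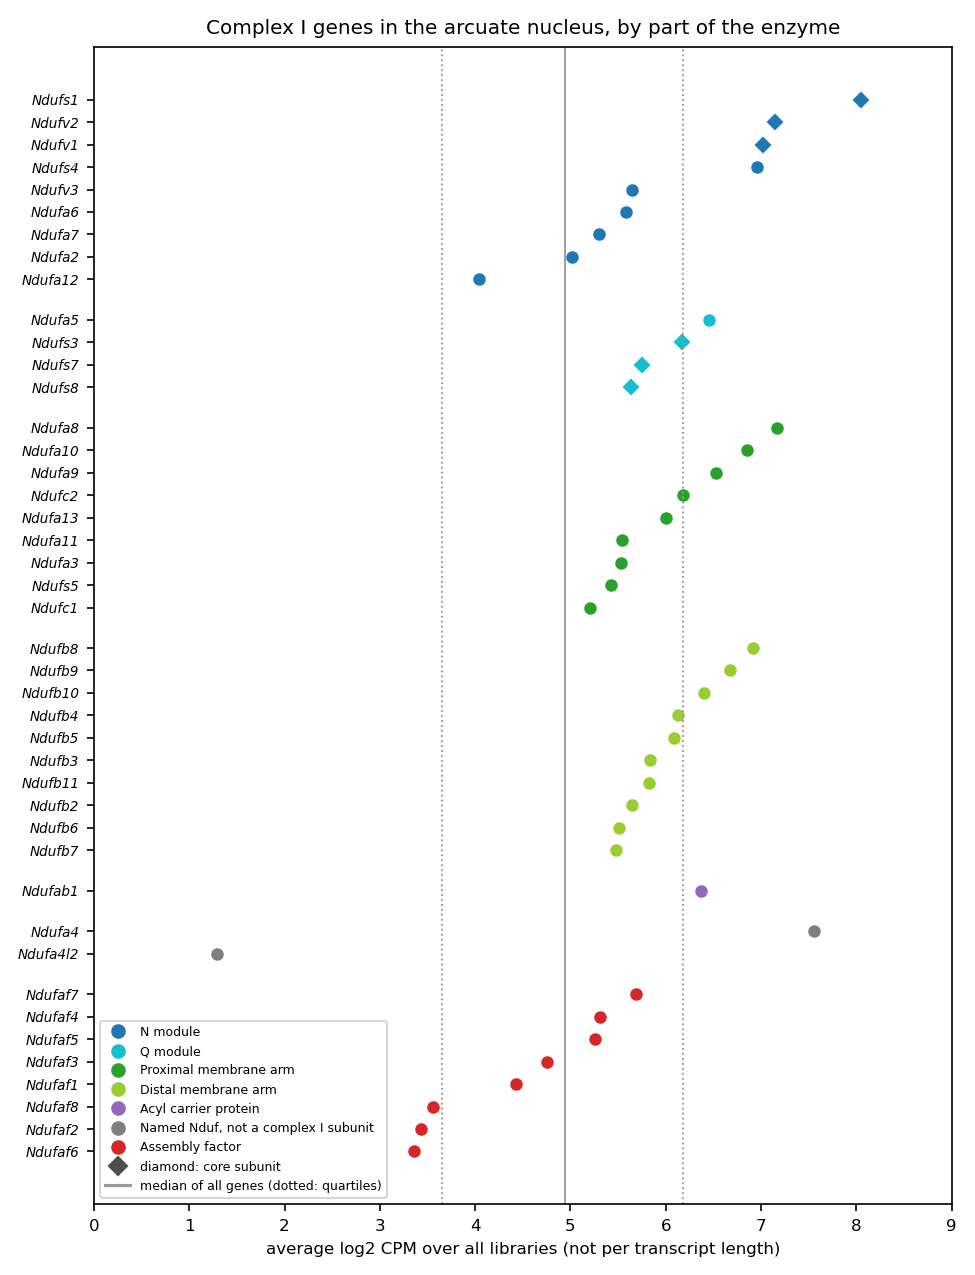
Average log2 CPM over all libraries of 43 of the 44 complex I genes, grouped by their place in the enzyme and ordered by level within each group. Diamonds are 6 nuclear core subunits, and the vertical lines are the median (4.94, solid) and quartiles (3.65 and 6.18, dotted) of all 12828 genes. Core subunits lead the N module, both parts of the membrane arm hold a narrower range than the N module, and the assembly factors lie between 3.35 and 5.69.

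The 7 nuclear core subunits had a median of 7.02 log2 CPM against 5.83 for the 27 supernumerary subunits. *Ndufs1* (chr9:69919867-69953182, Rnor_6.0), the large iron-sulfur subunit of the N module, was the highest of all members at 8.05, or 266 CPM, with 95.6% of genes below it. *Ndufv2* (chr9:113875703-113900190), another iron-sulfur subunit, was at 7.15. *Ndufv1* (chr1:219254279-219259448), which binds FMN and NADH, was at 7.02. Others of the core were nearer the median of all subunits. *Ndufs3* (chr3:79721694-79728879), a Q module subunit that carries no redox group of its own, was at 6.17, *Ndufs7* (chr7:12318757-12326392) at 5.75 and *Ndufs8* (chr1:219141292-219144610) at 5.64. *Ndufs7* and *Ndufs8* hold the iron-sulfur clusters nearest to ubiquinone and were the lowest of the core, at 53.9 and 49.8 CPM. All 7 were above the median of all genes and 4 were above the upper quartile.

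By module, the N module had the widest range. The 9 of its 10 listed subunits found in the table ran from 4.05 to 8.05 with a median of 5.64, and both ends of the whole set of subunits belonged to it. *Ndufa12* (chr7:35125424-35167406), a supernumerary subunit that joins late in assembly, was the lowest subunit at 4.05 log2 CPM (16.5 CPM) and the only one of the 34 below the median of all genes, and *Ndufs1* had 16.1 times its CPM. *Ndufs4* (chr2:46372518-46476203), a supernumerary N module subunit whose loss in mice gives a model of Leigh syndrome, was at 6.95. The 5 Q module subunits had a median of 6.17, with *Ndufs8* the lowest. The single supernumerary subunit among them, *Ndufa5*, was at 6.45.

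The membrane arm had a narrower range than the N module, and its distal part a narrower one than its proximal part. The proximal part had a median of 6.0 over 9 of 10 listed subunits, from 5.20 (*Ndufc1*) to 7.17 (*Ndufa8*). *Ndufa8* (chr3:15362824-15379381), a small disulfide-bonded protein on the intermembrane side, was the supernumerary subunit with the most reads, at 144 CPM. The distal part had a median of 5.96 over 10 of 11 listed subunits, from 5.48 (*Ndufb7*) to 6.91 (*Ndufb8*). All 19 membrane arm subunits were above the median of all genes. *Ndufab1*, the mitochondrial acyl carrier protein, which sits in the enzyme in 2 places and also serves fatty acid and lipoate synthesis, was at 6.37.

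The paralogs *Ndufa4* and *Ndufa4l2* were far apart. *Ndufa4* (chr4:38233680-38240848), named for complex I but now held to belong to cytochrome c oxidase, was among the 5 highest members, at 7.56 log2 CPM (188 CPM). *Ndufa4l2* (chr7:70821957-70824085), a paralog induced by hypoxia and used as a marker of pericytes in brain, was the lowest of all members at 1.30 (2.46 CPM), with 3.69% of genes below it. The difference was 6.26 on the log2 scale. The step from *Ndufa4l2* to the next member, *Ndufaf6*, was 2.06, the largest in the order of members, and the largest step among the rest was 0.49.

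The assembly factors had a lower median than every module of the enzyme, and 7 of the 8 were below the lowest core subunit. *Ndufaf7* (chr6:1534594-1545828), an arginine methyltransferase that acts on the Q module, was the highest at 5.69 (51.5 CPM), and 13 of the 34 subunits were below it. *Ndufaf4* (chr5:39251337-39257512) and *Ndufaf3* (chr8:117351629-117353672), partners on the early Q module intermediate, were at 5.31 and 4.75. *Ndufaf5* (chr3:133232432-133261973), which hydroxylates an arginine of the *Ndufs7* protein, was at 5.26, while its partner *Ndufaf8* (chr10:109278712-109280863) was at 3.55. *Ndufaf1* (chr3:111458572-111469518), which works on the membrane arm, was at 4.43. *Ndufaf2* (chr2:39321741-39434560), a paralog of *Ndufa12* that holds its place until a late step, was at 3.43, next to 4.05 for *Ndufa12*. *Ndufaf6* (chr5:24297094-24320786), an early factor, was the lowest at 3.35 (10.2 CPM). Together the 8 factors took 0.0210% of the summed CPM, against 0.277% for the 34 subunits.

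Assembly factors with other names were also low in reads. Of 13 listed, 12 were found, with a median of 4.74, 4 above and 8 below the median of all genes, and 0 above the upper quartile. *Acad9*, a flavoprotein that works with *Ndufaf1*, was the highest at 5.52. *Ecsit* and *Tmem126b*, of the same assembly complex, were at 4.88 and 5.12, and *Timmdc1* was at 4.77. *Nubpl*, which delivers iron-sulfur clusters to the enzyme, was the lowest at 3.11.

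The 7 core subunits of the membrane arm that are encoded in the mitochondrial genome made up most of the reads of the enzyme. Their summed CPM was 2.32% of the table, 8.38 times that of the 34 nuclear subunits, and all 7 were above the upper quartile of all genes. These genes have no introns, so the annotated span is the length of the gene and the reads can be given per kb of it. The part of poly-A selection and of reads shared between genes in these values was not tested, so the order is one of reads per kb and not of transcripts. *Mt-nd2* (positions 3904 to 4942 of the mitochondrial genome in Rnor_6.0) was the highest at 13.05 log2 CPM per kb, followed by *Mt-nd1* at 12.86 and *Mt-nd5* at 11.55. *Mt-nd3* was at 11.13 per kb and *Mt-nd4l* at 10.91. *Mt-nd4* (positions 10160 to 11537), a proton-pumping subunit, was at 8.05 per kb. *Mt-nd6* (positions 13543 to 14061), encoded on the opposite strand to the others, was the lowest at 7.39. The range was 5.66 log2 units per kb.

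*Mt-nd4* stood apart from its neighbours along the mitochondrial genome. It was 3.50 log2 units per kb below *Mt-nd5* and 2.86 below *Mt-nd4l*, with which it shares 7 bases and, as background, a common transcript, so reads per kb do not measure that transcript evenly here. The annotated *Mt-nd5* and *Mt-nd6* overlap by 23 bases. Of the summed CPM of the 7 genes, *Mt-nd2* took 38.0%, *Mt-nd1* 30.6%, *Mt-nd5* 23.7%, *Mt-nd3* 3.37%, *Mt-nd4l* 2.47%, *Mt-nd4* 1.57% and *Mt-nd6* 0.374%.

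**Figure D3:**
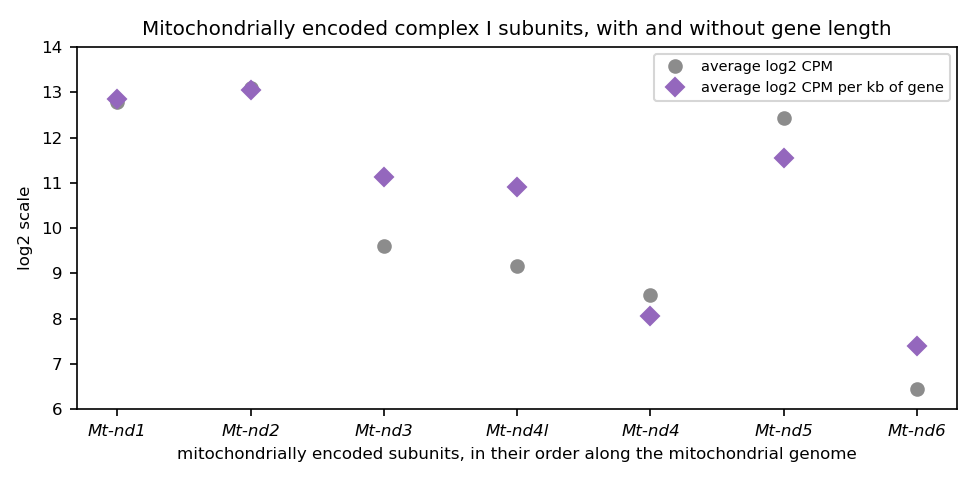
Levels of the 7 mitochondrially encoded complex I subunits in their order along the mitochondrial genome, as average log2 CPM (grey circles) and as average log2 CPM per kb of gene (purple diamonds). *Mt-nd1* and *Mt-nd2* are near 13 per kb, and *Mt-nd4* (8.05) and *Mt-nd6* (7.39) lie below the rest.

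Set beside the rest of the respiratory chain in reads, the 34 nuclear complex I subunits (median 6.04) were below complex II (median 6.97, 4 genes), complex III (6.60, 10 genes), complex IV (6.98, 14 genes) and complex V (6.74, 15 genes), and above the 72 mitochondrial ribosomal protein genes (4.67). The other sets were taken by gene symbol alone. The complex IV set kept every matching symbol, down to *Cox6a2* at 0.47, and did not hold *Ndufa4*. The complex I set was without *Ndufa4* and the low *Ndufa4l2*, so the sets were not made alike. Lengths also differ between these sets, so this order too is one of reads. Genes used as measures of mitochondrial mass, which include citrate synthase (*Cs*, 7.82) and the outer membrane channel *Vdac1* (8.08), had a median of 7.91 over 6 genes. They ran from *Tomm40* at 5.69 to *Hspd1* at 8.27. The 8 regulators of mitochondrial biogenesis had a median of 4.70, from *Ppargc1b* at 2.83 to *Esrra* at 5.26. *Nrf1* itself, the factor of the first promoter word, was at 4.16 and the mitochondrial transcription factor *Tfam* at 4.99.

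**Figure D4:**
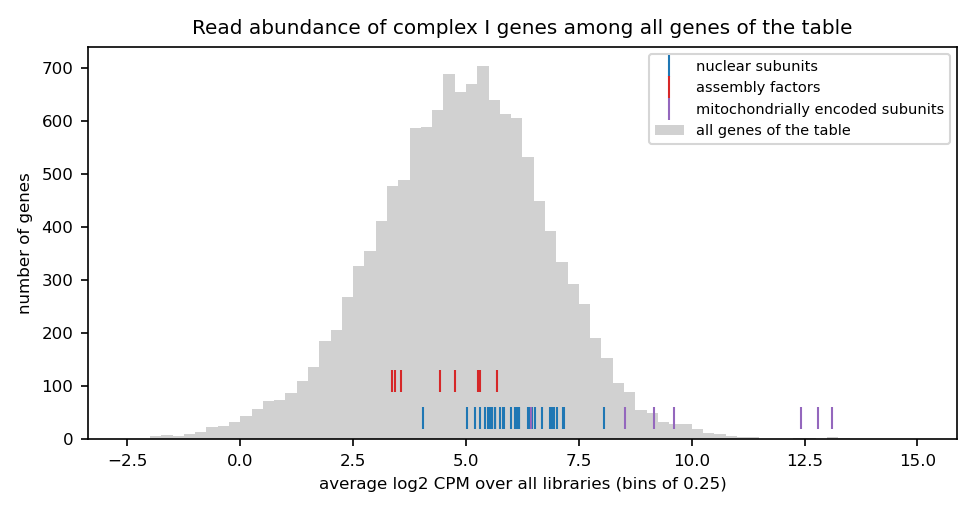
Histogram of the average log2 CPM of all 12828 genes (grey, bins of 0.25), with ticks for 33 of the 34 nuclear complex I subunits (blue), the 8 assembly factors (red) and the 7 mitochondrially encoded subunits (purple). The nuclear subunits lie mostly to the right of the median of 4.94, the assembly factors lie on either side of it, and 6 of the mitochondrial genes are further right than every nuclear subunit.

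Some levels are less certain because reads can be shared. RefSeq lists pseudogene copies by name for 18 of the 44 members (44 copies in all), with the most for *Ndufb4* (7) and *Ndufaf4* (5), and with 4 each for *Ndufa5*, *Ndufa13* and *Ndufa2*. Among rows that are not members, 2 have an Nduf symbol in RefSeq, and both were annotated as protein-coding by the authors. A named pseudogene copy of *Ndufs5* (*Ndufs5-ps2*) on chr2:195940715-195941035 was at 3.76 log2 CPM, against 5.42 for *Ndufs5*. The other, *Ndufb4l4* on chrX:42328840-42329232, is not named as a pseudogene and was at 0.09, against 6.13 for *Ndufb4*. The spans of 5 members overlap another gene of the table, *Ndufs8* with *Unc93b1* (406 bases), *Ndufb6* with *Topors* (212), *Ndufa4* with *Phf14* (121), *Ndufs3* with *Kbtbd4* (84) and *Ndufa2* with *Tmco6* (70). The overlaps are short. The paper reports a check that the libraries were strand specific, but the strand setting of the counting is not given in the sources used here.

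The members are scattered over the genome. They lay on 17 chromosomes, 43 on autosomes and 1, *Ndufb11*, on the X chromosome, with 6 each on chromosomes 1 and 7 and 5 on chromosome 9. The closest pair was *Ndufs8* and *Ndufv1* on chromosome 1, at 110 kb, and no other pair was closer than 4431 kb. Gene spans ran from 1.71 kb (*Ndufc1*) to 113 kb (*Ndufaf2*), with a median of 7.41 kb.

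The label of the tissue was checked against marker genes. Of 10 listed ARC markers, 8 were found with a median of 3.28 log2 CPM, among them *Cartpt* at 6.02, *Th* at 5.20, *Pomc* at 4.67, *Agrp* at 1.42 and *Kiss1* at 0.08. *Npy* and *Nr5a2* were not found by name. Markers of neurons (median 8.80), astrocytes (9.62) and oligodendrocytes (9.90) were high, and those of endothelium (6.27, 3 of 5 found), microglia (4.46) and ependyma (2.58, 2 of 3 found) were lower. Markers of regions outside the ARC were also present, with a striatal median of 5.19 (*Ppp1r1b* at 7.07) and a cortical and hippocampal median of 3.34 (*Slc17a7* at 7.17, 3 of 5 found). The complex I levels are averages over all these cells, and the part that each cell type or region had in them was not tested.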

How the data were processed

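The libraries were made by the authors from ARC RNA of 5 5X-FA and 5 5X-MTHF dams, with poly-A selection and paired reads. Reads were trimmed with Trim Galore 0.5.0, aligned with STAR 2.6.0c to Rnor_6.0 with Ensembl gene models, counted with HTSeq 0.6.1p2 and compared with DESeq2 1.26.0s in R 3.6.1, per the methods and the processing notes of the submitters. The authors deposited 1 filtered table of 12828 genes. Its average log2 CPM over all libraries, on a log2 scale, was the value used here. Genes with few reads had already been removed. DESeq2 gives neither an F nor an average log2 CPM, so this table came from another tool, which is not given in the sources used here.

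The 4 columns of the authors' own comparison (the log2 fold change between the diets with its F, its p-value and its FDR) were not used. Another 10 columns of values per library bear names that match no sample label and were used in no step. The planned tests needed values per dam, and no test of the diets was made. Depth per library and its precision were not obtained.

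CPM was computed as 2 to the power of the average log2 CPM. Shares of genes below a level were taken over all 12828 rows. The members and lists were chosen with earlier results of these data known. Named genes were the 7 nuclear core subunits, of which 1 is not reported here, all assembly factors, the 5 highest and 5 lowest members, *Ndufa4* and *Ndufa4l2*. Other genes were named at the ends of ranges, or after their values or promoters had been seen. Symbols, pseudogenes and promoters were matched to RefSeq on GRCr8 (44 of 44 symbols), which differs from the build of the table, so positions of genes are from the table and those of promoters from RefSeq. Promoter words were searched on both strands. A word's matches did not overlap those of another word in member promoters. The search was run on simulated sequences of A and T with planted words, which shows only that a planted word is found. The work was done in Python 3.11.15 with scipy 1.17.1, pandas 2.3.3, matplotlib 3.10.9 and numpy 2.4.6. Alternatives were protein-coding genes as the reference, and subunits without *Ndufa4* and *Ndufa4l2*, without genes with pseudogene copies, without overlapping genes, or with mitochondrial genes left out of the reference.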

Additional observations from a re-analysis of the deposited data

How the results depend on the processing

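The share of genes below the median of the subunits was 72.5%. It was 71.8% with protein-coding genes as the reference and 72.6% without mitochondrial genes in the reference. Without *Ndufa4* and *Ndufa4l2*, of which one lies above the median and the other below, it was 72.5% by construction. It was 68.2% without the members that have a named pseudogene copy (21 subunits left) and 73.4% without the members that overlap another gene (31 left). The cause was not tested. Leaving out mitochondrial genes, members with pseudogene copies and overlapping members was chosen after seeing the data. The alternatives meant for a comparison of the diets (pseudocount, filter, count model, scaling, leaving out each dam, replicate block) and the level per kb of transcript for nuclear genes were not run, since no column could be matched to a dam and no transcript lengths were at hand. No paired analysis was possible because the columns carry no replicate number that matches a label. The depth of each library and the spread between dams were not obtained, so no error is given for a level.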
